A study of Saccharomyces cerevisiae with 24 samples.

Results

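Allantoin and urea are nitrogen sources that the yeast Saccharomyces cerevisiae takes up and degrades when better ones run short. The 9 genes described here serve that use: the transporter genes DAL4, DAL5 and DUR3, the enzyme genes DAL1, DAL2, DAL3 and DAL7, and the activator genes DAL81 and DAL82. They were chosen by symbol, 1 probe set per gene, and are 9 of the 5449 genes measured. The gene for urea amidolyase, DUR1,2, which degrades urea itself, was not analysed here, because no probe set was named for it.

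The study measured transcripts in 24 cultures of 4 strains, namely a reference strain labelled wild type and the deletion strains snf1Δ, tor1Δ and snf1Δtor1Δ. Each strain grew at steady state in aerated bioreactors at a dilution rate of 0.1 per h, 30 °C and pH 5.0. Growth was limited either by glucose (C-lim, 10 g/L glucose) or by ammonium (N-lim, 1 g/L ammonium sulfate), with 3 cultures and 3 arrays in each of the 8 groups. Its design asks how the kinases Snf1 and Tor1, alone and together, shape transcription under each limitation. No allantoin or urea is named in either medium. The labels name neither the strain background nor how many clones stand for a deletion.

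Allantoin enters the cell through the permease Dal4 and its breakdown product allantoate through Dal5, which also carries small peptides; Dur3 takes up urea together with polyamines. Inside the cell the allantoinase Dal1 opens allantoin to allantoate, the allantoicase Dal2 splits allantoate into urea and ureidoglycolate, and Dal3 splits ureidoglycolate into urea and glyoxylate. The malate synthase Dal7 joins that glyoxylate to acetyl-CoA. Dal81 and Dal82 activate several of these genes when the inducer allophanate is present. Nitrogen catabolite repression holds the pathway down in rich nitrogen: the GATA factors Gln3 and Gat1 activate its promoters, Dal80 and Gzf3 compete with them, and Ure2 keeps Gln3 in the cytoplasm. TORC1, of which Tor1 is a subunit, is known to restrain Gln3 and Gat1, and Tor2 can take the place of Tor1 in that complex, so that tor1Δ cells still have TORC1. Snf1 is the yeast AMP-activated kinase that yeast needs to grow on carbon sources such as ethanol once glucose is gone.

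Values below are log2 intensities as the authors deposited them, and differences between groups are log2 changes from limma with their standard error (SE) and an adjusted p. A gene is said to have risen or fallen where that p, adjusted over all 5449 genes by the Benjamini-Hochberg method, was under 0.05. The array medians lay between 7.79 and 7.97, and arrays of a group correlated with each other at 0.993 to 0.999. SNF1 read 2.15 on all arrays of snf1Δ and snf1Δtor1Δ and 8.70 to 9.14 elsewhere, and TOR1 read 2.26 to 2.27 on all arrays of tor1Δ and snf1Δtor1Δ and 6.76 to 7.87 elsewhere. Group means under log2 3, a level set after the values were seen, are treated as a floor, and a fold change from the floor is given as "at least". Each deletion strain is compared with the same 3 reference arrays of its medium, so the comparisons share those arrays. In bulk cultures fewer cells that express a gene and less RNA per cell cannot be told apart.

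In the reference strain all 9 genes were higher under ammonium than under glucose limitation. Their median change was 2.81, against 0.08 over all genes, and the 3 arrays of one limitation never overlapped the 3 of the other. Calls were common in this comparison, since 41.5% of all genes rose, 25.7% fell and 67.4% of all genes had groups that did not overlap. The genes of transport and breakdown changed by 1.32 to 6.08 and the activator genes DAL81 and DAL82 by 1.09 and 0.96.

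Among the transporters, DAL5 changed most. Its 3 C-lim arrays read 6.25, 6.34 and 6.73 and its 3 N-lim arrays 12.57, 12.55 and 12.44. All N-lim arrays thus lay far above all C-lim arrays, a change of 6.08 ± 0.12 (SE, adjusted p = 8.02e-18), or 67.7-fold. The urea transporter gene DUR3 read 5.67, 5.77 and 5.51 in C-lim and 9.0, 9.32 and 9.08 in N-lim. It rose by 3.48 ± 0.16 (adjusted p = 1.16e-12), or 11.2-fold. The allantoin permease gene DAL4 read 4.48, 4.68 and 4.58 in C-lim and 7.17, 7.55 and 7.44 in N-lim, a rise of 2.81 ± 0.17 (adjusted p = 4.58e-11), or 7.02-fold.

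The 4 enzyme genes rose over a wide range of folds. DAL1, for the allantoinase of the opening step, was near the floor in C-lim at 2.88, 2.91 and 3.07 and reached 7.13, 7.25 and 7.28 in N-lim. Its change was 4.27 ± 0.11 (adjusted p = 1.59e-16), at least 18.6-fold. The allantoicase gene DAL2 was well above the floor in both media, with 7.15, 7.55 and 7.37 in C-lim against 9.62, 9.79 and 9.83 in N-lim. It rose by 2.39 ± 0.12 (adjusted p = 3.51e-12), or 5.24-fold. DAL3, whose enzyme releases glyoxylate, showed the smallest rise of the enzyme genes. It read 7.75, 8.32 and 7.91 in C-lim and 9.30, 9.33 and 9.32 in N-lim, a change of 1.32 ± 0.14 (adjusted p = 1.02e-07), or 2.51-fold. DAL7, for the malate synthase that takes up the glyoxylate, went from 6.63, 6.94 and 6.42 in C-lim to 10.68, 10.79 and 10.61 in N-lim. That was a rise of 4.03 ± 0.15 (adjusted p = 3.6e-14), or 16.4-fold.

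The activator genes moved less, and their arrays were close together. DAL81 read 6.23, 6.14 and 6.19 in C-lim and 7.27, 7.33 and 7.24 in N-lim, a rise of 1.09 ± 0.07 (adjusted p = 1.2e-10), or 2.14-fold. DAL82 read 7.39, 7.33 and 7.51 in C-lim and 8.35, 8.30 and 8.47 in N-lim, a rise of 0.96 ± 0.07 (adjusted p = 1.94e-09), or 1.95-fold.

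**Figure D1:**
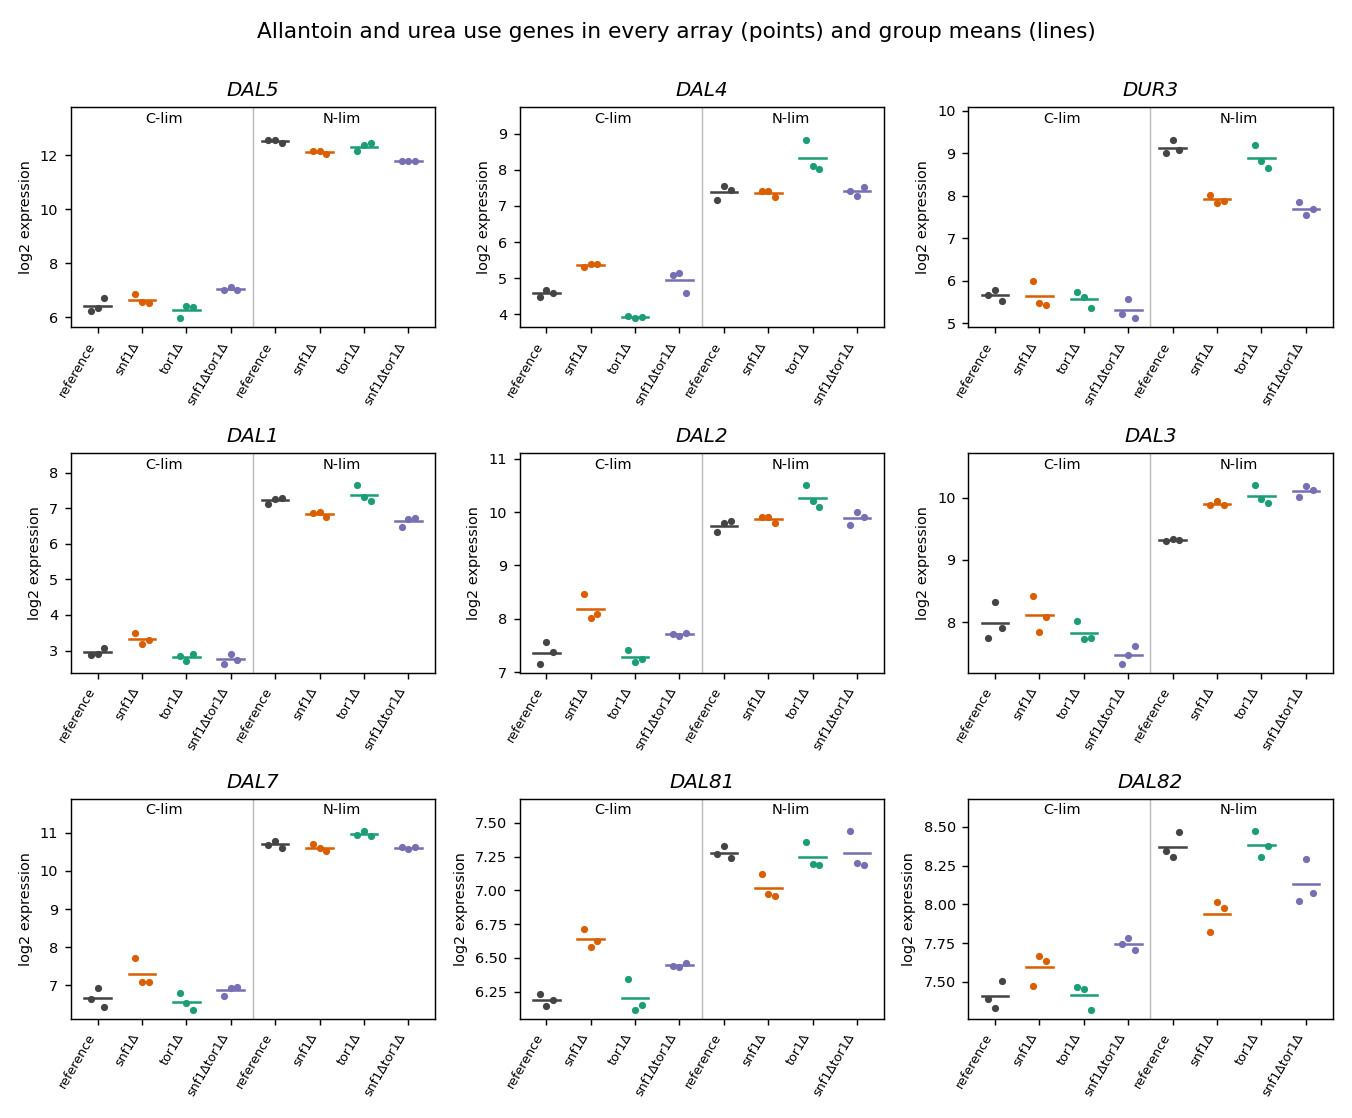
Log2 intensity (vertical axis) of each of the 9 genes, 1 panel per gene, in the 8 groups (horizontal axis: strain and limitation); points are single arrays and bars are means of 3 arrays. In every panel and every strain the N-lim points stand above the C-lim points, for DAL5 from between 5.97 and 7.12 to between 11.77 and 12.57.

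In each deletion strain, too, all 9 genes were higher in N-lim than in C-lim, and no C-lim array of a strain overlapped its N-lim arrays. In snf1Δ the median change of the 9 genes was 2.01, against 0.04 over all genes, of which 32.4% rose, 23% fell and 64.7% had groups that did not overlap. In tor1Δ the median was 3.32, against 0.05 over all genes, of which 37.4% rose, 27.5% fell and 68.6% did not overlap. In snf1Δtor1Δ it was 2.46, against 0.06 over all genes, of which 35.3% rose, 23.2% fell and 63.5% did not overlap. The limits of the response were wide in each strain: DAL5 rose 43.9-fold in snf1Δ, 66.6-fold in tor1Δ and 26.4-fold in snf1Δtor1Δ, while DAL82 rose 1.27-fold, 1.96-fold and 1.31-fold.

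Within that shared direction the size of the change differed between strains gene by gene. DAL3 was the gene with the smallest N-lim rise among the transport and breakdown genes in the reference strain, at 1.32, yet rose by 1.79, 2.20 and 2.64 in snf1Δ, tor1Δ and snf1Δtor1Δ. DUR3 went the other way, with 3.48 in the reference strain, 3.32 in tor1Δ, 2.28 in snf1Δ and 2.39 in snf1Δtor1Δ. The rise of DAL81 was 1.09 and 1.04 in the reference strain and tor1Δ, 0.83 in snf1Δtor1Δ and 0.38 in snf1Δ. DAL4 ranged from 2.01 in snf1Δ to 4.39 in tor1Δ. The tests of these differences are the interactions given below for each deletion.

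**Figure D2:**
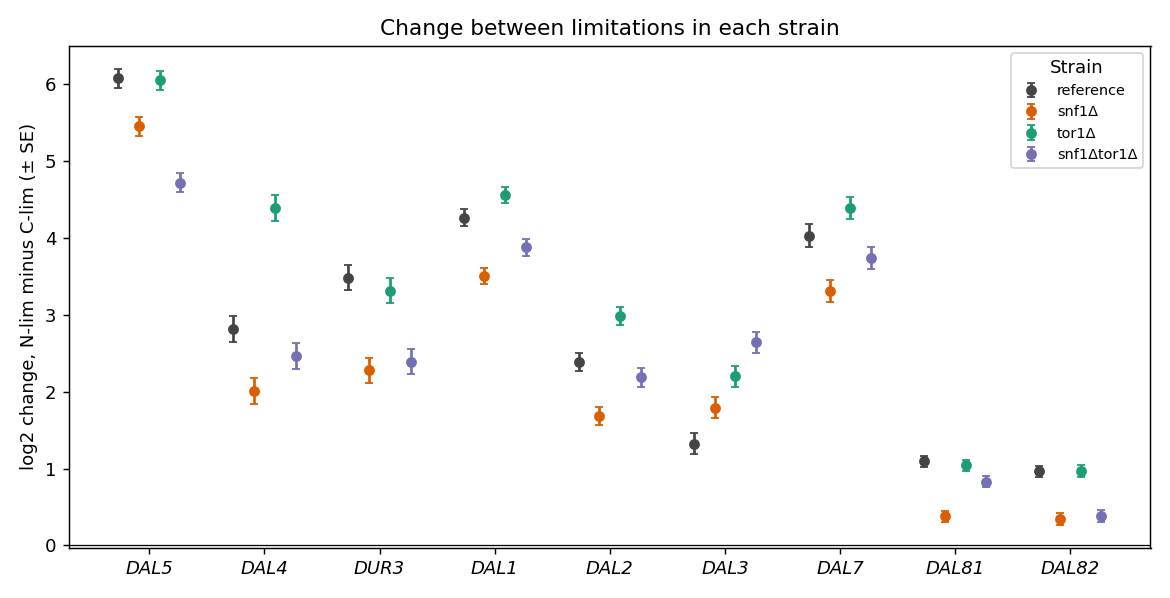
Log2 change from glucose to ammonium limitation (vertical axis) of each gene (horizontal axis) in the 4 strains; points are estimates from 3 against 3 arrays and bars are ± 1 SE. All points are above 0, DAL5 stands highest in every strain, and DAL81 and DAL82 lowest, between 0.34 and 1.09.

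Under glucose limitation, where all 9 genes had their lower levels, 6 of them were higher in snf1Δ than in the reference strain and none was lower, while 40.5% of all genes rose and 21.6% fell, and 5 of the 9 did not overlap, against 61.6% of all genes. The median change was 0.38, against 0.10 over all genes. The allantoicase gene DAL2 moved most: its snf1Δ arrays read 8.47, 8.01 and 8.08, each above the 3 reference arrays, a rise of 0.83 ± 0.12 (adjusted p = 9.96e-06), or 1.78-fold. The allantoin permease gene DAL4 read 5.32, 5.38 and 5.38 in snf1Δ and rose by 0.78 ± 0.17 (adjusted p = 0.000591), or 1.72-fold. The snf1Δ arrays of the malate synthase gene DAL7 read 7.70, 7.09 and 7.10, all above the reference, for a rise of 0.63 ± 0.15 (adjusted p = 0.0011), or 1.55-fold. For the activator gene DAL81 the snf1Δ arrays were 6.72, 6.58 and 6.62, a rise of 0.45 ± 0.07 (adjusted p = 2.1e-05), or 1.37-fold. The allantoinase gene DAL1 read 3.50, 3.19 and 3.31 and rose by 0.38 ± 0.11 (adjusted p = 0.00482), at least 1.26-fold since its reference mean was under the floor.

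DAL82 also passed in C-lim, by 0.18 ± 0.07 (adjusted p = 0.0409), but its snf1Δ arrays (7.48, 7.67 and 7.64) overlapped the reference. The call was absent without reference replicate 9 (0.18), reference replicate 10 (0.15), snf1Δ replicate 11 (0.15) or snf1Δ replicate 12 (0.16), and with the arrays centred on their medians (0.14). DAL3 (0.12 ± 0.14, adjusted p = 0.472), DAL5 (0.22 ± 0.12, adjusted p = 0.134) and DUR3 (-0.02 ± 0.16, adjusted p = 0.964) did not pass. DAL5 did pass without reference replicate 11, at 0.37. Among the snf1Δ C-lim arrays replicate 10 stood highest for 6 of the 7 transport and breakdown genes, by a median of 0.28 above the group means. Without it DAL2 was at 0.69 and DAL7 at 0.43, and the same number of genes passed, 6. With the spread taken only from the groups compared, 4 of the 9 genes passed, and DAL7 (0.63) and DAL82 (0.18) did not.

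Under ammonium limitation, where the pathway is high, 5 of the 9 genes were lower in snf1Δ than in the reference strain and 1 was higher. Of all genes 17% fell and 14.1% rose, and 6 of the 9 genes had groups that did not overlap, against 51.2% of all genes. The median change was -0.26, against -0.00 over all genes. The urea transporter gene DUR3 fell most: its snf1Δ arrays read 8.01, 7.83 and 7.88, all below the reference arrays, a change of -1.22 ± 0.16 (adjusted p = 1.47e-05), or 2.33-fold lower. Both activator genes fell. DAL82 read 7.82, 8.01 and 7.97, a change of -0.44 ± 0.07 (adjusted p = 0.000225), and DAL81 read 7.12, 6.97 and 6.96, a change of -0.26 ± 0.07 (adjusted p = 0.00825). The allantoate permease gene DAL5 read 12.16, 12.16 and 12.04 and fell by 0.40 (SE 0.12, adjusted p = 0.0189), and DAL1 read 6.86, 6.91 and 6.76 and fell by 0.38 (SE 0.11, adjusted p = 0.0119).

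DAL3 was the exception in N-lim. It read 9.89, 9.94 and 9.88 in snf1Δ against 9.30 to 9.33 in the reference strain, a rise of 0.59 ± 0.14 (adjusted p = 0.00331), or 1.50-fold. DAL2 (0.13, adjusted p = 0.474), DAL4 (-0.02, adjusted p = 0.942) and DAL7 (-0.09, adjusted p = 0.733) did not pass. The DAL5 call was absent without reference replicate 9 (-0.38), reference replicate 10 (-0.39) or snf1Δ replicate 11 (-0.36), and the DAL1 call without snf1Δ replicate 11 (-0.33).

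The effect of SNF1 deletion therefore differed between the media, and the interaction term tests that difference as the effect in N-lim minus the effect in C-lim. It was below 0 for 8 of the 9 genes, a direction in which 31% of all genes passed, while 16.2% passed above 0, and its median was -0.72, against -0.08 over all genes. DUR3 had an interaction of -1.20 ± 0.23 (adjusted p = 0.000299) and DAL4 of -0.81 ± 0.24 (adjusted p = 0.00979). The allantoinase gene DAL1 followed at -0.76 ± 0.15 (adjusted p = 0.000451), with its reference C-lim mean under the floor. The terms of DAL7 (-0.72), DAL81 (-0.72), DAL2 (-0.70), DAL5 (-0.62) and DAL82 (-0.62) passed as well, with adjusted p from 1.07e-05 to 0.00841. Equivalently, the N-lim over C-lim rise of these 8 genes was smaller in snf1Δ than in the reference strain. DAL3 alone had a positive term, 0.47 ± 0.20, with adjusted p = 0.0586. It passed, as 1 higher against 8 lower, with the arrays centred on their medians (0.52) or quantile-normalized again (0.51), without reference C-lim replicate 9 (0.59) and without snf1Δ C-lim replicate 10 (0.62).

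**Figure D3:**
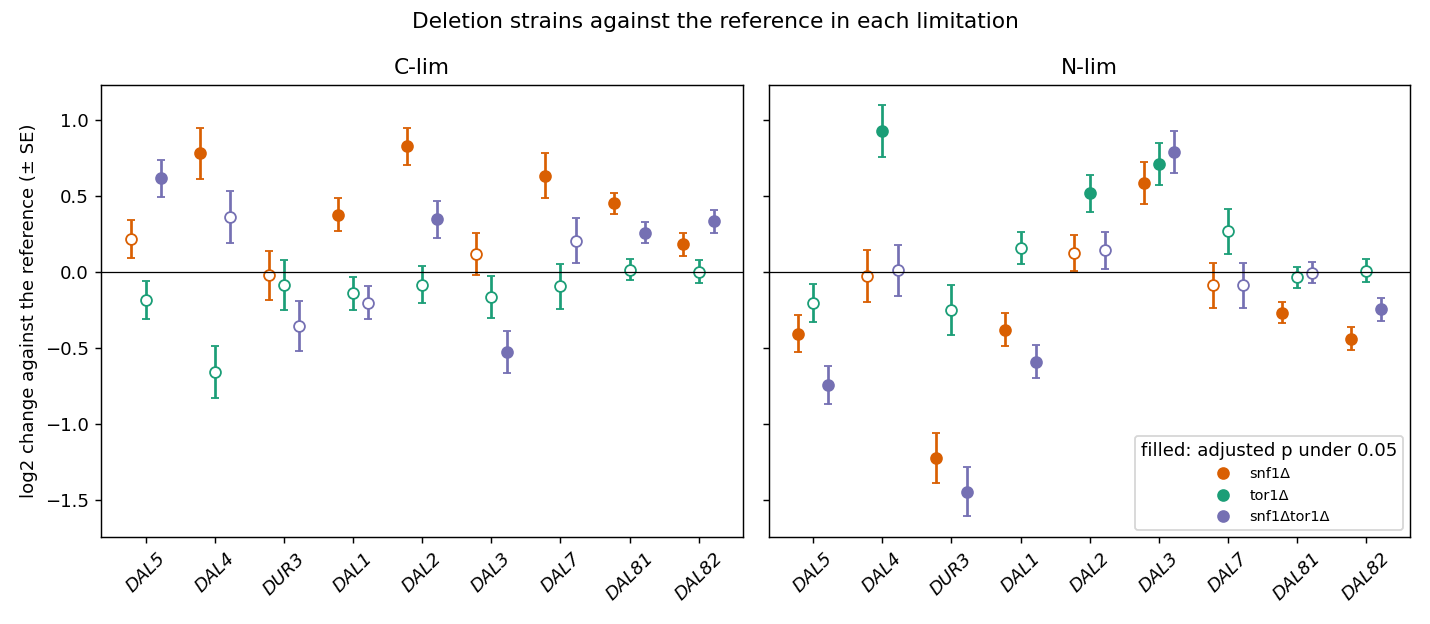
Log2 change of each deletion strain from the reference strain (vertical axis) for each gene (horizontal axis), in C-lim and N-lim; points are estimates from 3 against 3 arrays, bars are ± 1 SE, and filled points have an adjusted p under 0.05. In snf1Δ most filled points lie above 0 in C-lim and below 0 in N-lim, DUR3 reaching -1.22, while tor1Δ has filled points only for DAL2, DAL3 and DAL4 in N-lim.

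Under glucose limitation no gene of the pathway passed for the deletion of TOR1 alone. By limma 0 of the 9 genes passed, in a comparison that called 1.06% of all genes, 0.606% higher and 0.459% lower. At an unadjusted p under 0.05, for which no share of all genes is given here, 1 did. The 1 gene was DAL4, whose tor1Δ arrays read 3.96, 3.89 and 3.92, below all reference arrays, a change of -0.65 ± 0.17 (adjusted p = 0.071). It passed with the arrays centred on their medians (-0.70) and with quantile normalization repeated (-0.84). It was the only one of the 9 without overlap, against 13.6% of all genes. The other 8 changed by -0.18 to 0.02. Over the 9 genes the median change was -0.09, against 0.03 over all genes.

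Under ammonium limitation 3 of the 9 genes were higher in tor1Δ and none was lower, while 0.716% of all genes rose and 2.2% fell. The median change of the 9 was 0.16, against -0.00 over all genes. The allantoin permease gene DAL4 read 8.83, 8.09 and 8.02 in tor1Δ against 7.17 to 7.55 in the reference strain, a rise of 0.93 ± 0.17 (adjusted p = 0.00464), or 1.90-fold. DAL3 read 10.20, 9.98 and 9.91 and rose by 0.71 ± 0.14 (adjusted p = 0.00673), or 1.64-fold. DAL2 read 10.50, 10.20 and 10.10 and rose by 0.52 ± 0.12 (adjusted p = 0.0228), or 1.43-fold. The 3 genes code for the allantoin permease, the allantoicase and the enzyme of the ureidoglycolate step. In all, 5 of the 9 did not overlap, against 21.1% of all genes; the other 2 were DAL7, with 10.95, 11.04 and 10.90 (0.27 ± 0.15, adjusted p = 0.442), and DAL5, with 12.14, 12.37 and 12.43 (-0.20 ± 0.12, adjusted p = 0.517). DUR3 changed by -0.25 ± 0.16 (adjusted p = 0.561) and DAL81, DAL82 and DAL1 by -0.03, 0.01 and 0.16.

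The highest tor1Δ N-lim array for DAL2, DAL3 and DAL4 was replicate 9. Without it the change was 0.67 for DAL4 and 0.63 for DAL3, both still past the threshold, and 0.40 for DAL2, which was not. The DAL2 call was also absent without reference replicate 9 (0.46) or 10 (0.54). With the spread taken only from the groups compared, 1 of the 3 genes passed, DAL3, and neither DAL4 nor DAL2 did.

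The TOR1 effect differed between media for DAL4 and DAL3, in a test that 0.275% of all genes passed above 0 and 0.697% below. The interaction was 1.58 ± 0.24 for DAL4 (adjusted p = 0.00228), from -0.65 in C-lim to 0.93 in N-lim, and 0.88 ± 0.20 for DAL3 (adjusted p = 0.0388). DAL2 had 0.60 ± 0.17 (adjusted p = 0.116) and the other 6 genes -0.16 to 0.36. DAL3 lost the call without any 1 of 10 arrays, with terms from 0.71 (without reference C-lim replicate 10) to 0.93 (without tor1Δ N-lim replicate 11). DAL4 kept it without each array in turn, with terms of 1.32 or more. With the replicate number as a block its term was 1.65. That fit leaves out tor1Δ C-lim replicates 7 and 8, so 1 array stands for that group and no p is read from it.

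In the double deletion strain snf1Δtor1Δ the pathway under glucose limitation held 4 genes above and 1 below the reference strain. Among all genes 42.7% rose and 18.8% fell, and 5 of the 9 did not overlap, against 62.9% of all genes. The 9 genes had a median change of 0.26, against 0.13 over all genes. DAL5 read 7.02, 7.12 and 7.03 and rose by 0.62 ± 0.12 (adjusted p = 0.000303), or 1.53-fold. The activator genes rose too, DAL82 by 0.33 ± 0.07 (adjusted p = 0.000836) with arrays at 7.75, 7.78 and 7.71, and DAL81 by 0.26 ± 0.07 (adjusted p = 0.00365) with arrays at 6.44, 6.43 and 6.46. DAL2 read 7.71, 7.68 and 7.73 and rose by 0.35 ± 0.12 (adjusted p = 0.0183). DAL3 fell, with arrays at 7.33, 7.46 and 7.61, by 0.52 (SE 0.14, adjusted p = 0.00304). DAL4 (0.36, adjusted p = 0.0715), DAL7 (0.21, adjusted p = 0.238) and DUR3 (-0.35, adjusted p = 0.068) did not pass, and DAL1 was under the floor in both groups.

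The split of 4 higher and 1 lower depended on the scaling. With the arrays centred on their medians it was 3 higher and 3 lower. The added calls were DUR3 (-0.44) and DAL1 (-0.28), and for DAL1 both groups lay under the floor, so that no fall was measured. DAL2 was no longer called, at 0.26. With quantile normalization repeated it was 3 higher and 2 lower, with DUR3 at -0.48 and DAL81 no longer called at 0.09. DAL2 lost its call without reference replicate 9 (0.24), and DUR3 (-0.49) passed without snf1Δtor1Δ replicate 2, as did DAL1 between its floor values. DAL4 passed without snf1Δtor1Δ replicate 3, at 0.55.

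Under ammonium limitation 4 genes were lower and 1 higher in snf1Δtor1Δ, where 16.4% of all genes fell and 23.9% rose. These 5 were the genes without overlap, against 49.6% of all genes. The median change of all 9 genes was -0.08, against 0.04 over all genes. DUR3 read 7.84, 7.55 and 7.67 and fell by 1.44 (SE 0.16, adjusted p = 1.66e-06), 2.72-fold below the reference strain. DAL5 read 11.79, 11.77 and 11.78, below the arrays of every other N-lim group, and fell by 0.74 (SE 0.12, adjusted p = 0.000121). DAL1 read 6.48, 6.69 and 6.72 and fell by 0.59 (SE 0.11, adjusted p = 0.000266). The fourth, DAL82, read 8.02, 8.29 and 8.07 and fell by 0.24 (SE 0.07, adjusted p = 0.015). Its call was absent without reference replicate 11 (-0.20), snf1Δtor1Δ replicate 1 (-0.19) or snf1Δtor1Δ replicate 3 (-0.22). DAL3 rose again, with arrays at 10.02, 10.19 and 10.12, by 0.79 ± 0.14 (adjusted p = 0.000174), or 1.73-fold. DAL2, DAL4, DAL7 and DAL81 changed by 0.15, 0.01, -0.08 and -0.00 and did not pass.

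The effect of the double deletion differed between media for 6 genes, 1 with a term above 0 and 5 below, against 17.9% and 28.8% of all genes. DAL3 had the term above 0, 1.32 ± 0.20 (adjusted p = 2.24e-05). DAL5 had -1.36 ± 0.18 (adjusted p = 4.53e-06), DUR3 -1.09 ± 0.23 (adjusted p = 0.000751) and DAL82 -0.58 ± 0.11 (adjusted p = 0.000209). DAL1 (-0.39, adjusted p = 0.0434) and DAL81 (-0.26, adjusted p = 0.0378) passed narrowly, DAL1 with both C-lim means under the floor. Without single arrays they lost the call in 7 and 9 instances, with terms down to -0.31 for DAL1 and -0.22 for DAL81.

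Whether the 2 deletions together did more or less than their separate effects added on the log2 scale was tested in each medium. By limma 0 of the 9 genes passed in C-lim, where 5.74% of all genes did, and 0 of 9 in N-lim, where 0.697% did. In each medium 5 of the 9 had an unadjusted p under 0.05, in C-lim with DAL1, for which 3 of the 4 groups lay under the floor. The share of all genes at that unadjusted threshold is not given here, so the count is not read as an interaction of these genes. In C-lim DAL5 had 0.58 ± 0.18 (adjusted p = 0.0626), and in N-lim DAL4 had -0.89 ± 0.24 (adjusted p = 0.0939). In C-lim DAL5 passed without reference replicate 9 (0.67), reference replicate 10 (0.62), snf1Δ replicate 10 (0.69) or tor1Δ replicate 8 (0.66), and DAL3 without reference replicate 10 (-0.65).

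Seen by gene across the 8 groups, the highest mean was always in N-lim and the lowest always in C-lim. DAL1, DAL2, DAL4, DAL7 and DAL82 were highest in tor1Δ, DAL5, DAL81 and DUR3 in the reference strain and DAL3 in snf1Δtor1Δ. For DAL1, DAL81, DAL82 and DUR3 the N-lim arrays of the reference strain and tor1Δ overlapped, as did those of the reference strain and snf1Δtor1Δ for DAL81, so that the order of these groups is not settled. For DAL5 the N-lim means ran from 12.52 ± 0.07 (SD, n = 3) in the reference strain to 12.32 ± 0.15 in tor1Δ, 12.12 ± 0.07 in snf1Δ and 11.78 ± 0.01 in snf1Δtor1Δ. Of the neighbours in that order, the arrays of tor1Δ and snf1Δ overlapped and the other pairs did not. For DUR3 the order of the N-lim means was 9.13 ± 0.16 in the reference strain, 8.88 ± 0.28 in tor1Δ, 7.91 ± 0.10 in snf1Δ and 7.69 ± 0.14 in snf1Δtor1Δ. The arrays of the upper pair overlapped, as did those of the lower pair, and the 2 pairs did not. For DAL3 the order was reversed at its foot: the reference strain was lowest at 9.32 ± 0.01, and snf1Δ (9.91 ± 0.03), tor1Δ (10.03 ± 0.15) and snf1Δtor1Δ (10.11 ± 0.08) followed, with overlap between tor1Δ and its neighbours. DAL4 was highest in tor1Δ (8.32 ± 0.45), and the other 3 N-lim means lay between 7.36 and 7.40 with overlapping arrays.

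Of the 9 genes 5 lie in 1 run on chromosome IX with DCG1 among them, in the order DAL1, DAL4, DAL2, DCG1, DAL7, DAL3, between YVH1 and MGA2, by the RefSeq R64 annotation. DAL81 lies on the same chromosome with INA22, MND2 and YVH1 between it and DAL1, while DUR3 is on chromosome VIII, DAL5 on chromosome X and DAL82 on chromosome XIV. DCG1, the gene inside the run, whose function is not known, rose with its neighbours: from 5.27, 5.66 and 5.03 in C-lim to 8.46, 8.52 and 8.45 in N-lim in the reference strain, a rise of 3.15 ± 0.15 (adjusted p = 1.30e-12). In snf1Δ C-lim it read 7.25, 6.70 and 6.88, above every reference array, a rise of 1.62 ± 0.15, where the largest of the 9 genes was 0.83. Its interaction of SNF1 deletion with medium was -1.74 ± 0.21, and both passed.

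Other genes along this stretch of the chromosome moved less and not always in the same direction. SEC11, INA22, MND2, YVH1 and MGA2, which serve secretion, mitochondria, cell division, phosphatase signalling and fatty acid desaturation, all fell from C-lim to N-lim in the reference strain, with a median of -0.54. In snf1Δ 2 of the 5, SEC11 (0.21) and MGA2 (0.27), rose and 3 fell, in tor1Δ all 5 fell, and in snf1Δtor1Δ 1 rose and 3 fell. MGA2, next to DAL3, changed by -0.60, 0.27, -0.73 and 0.40 in the reference strain, snf1Δ, tor1Δ and snf1Δtor1Δ. YVH1, next to DAL1, changed by -0.52, -0.38, -0.43 and -0.31.

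**Figure D4:**
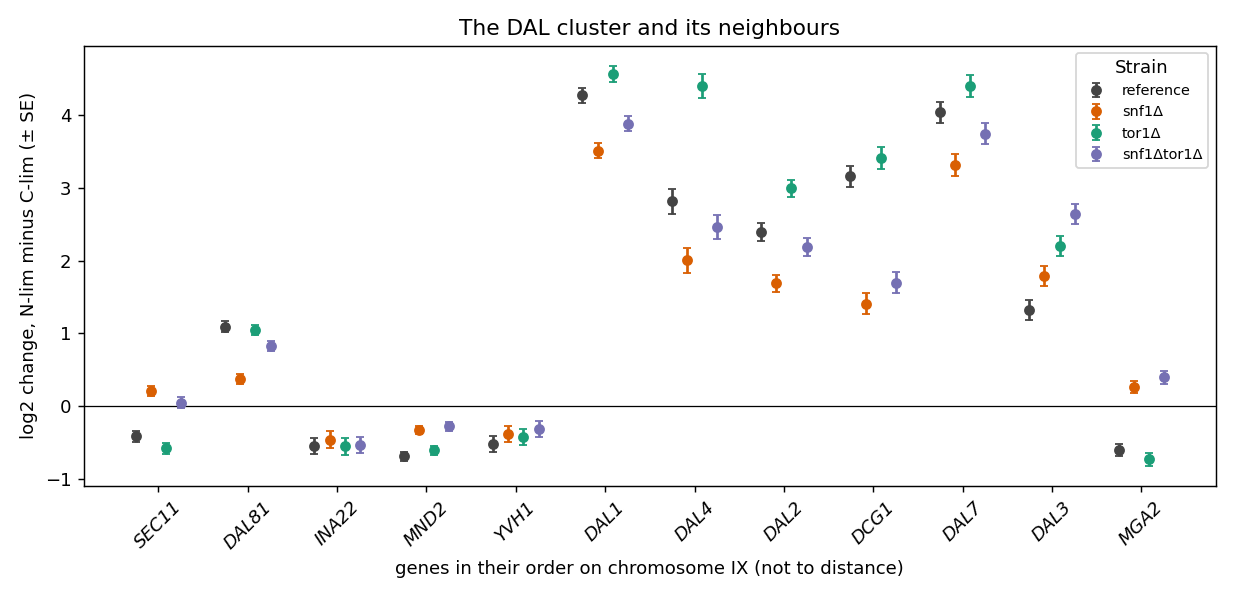
Log2 change from glucose to ammonium limitation (vertical axis) of the genes from SEC11 to MGA2 in their order on chromosome IX (horizontal axis, not to distance). Each gene has 1 point per strain, and bars are ± 1 SE. The 6 genes from DAL1 to DAL3 stand between 1.32 and 4.56 in all strains, and MGA2, beside DAL3, between -0.73 and 0.40.

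Across the 8 group means the 36 pairs of members correlated at 0.81 to 0.996 (Pearson r, median 0.96), values that the gap between the media dominates. The lowest was between DAL3 and DAL82. The 5 genes of the chromosome IX run correlated at 0.94 to 0.996 over their 10 pairs. Deviations of single arrays from their group means, over the 24 arrays, separated the genes more. They moved together for DAL2 and DAL3 (0.87), DAL3 and DAL7 (0.76) and DAL1 and DAL2 (0.72), with a median of 0.55 over the 10 pairs of the run, and for DUR3 with these 5 genes (0.49 to 0.69). Not all pairs of the run did. The lowest were DAL4 with DAL7 (0.01), DAL3 with DAL4 (0.17) and DAL1 with DAL7 (0.24). DAL5 was at -0.24 to 0.09 against the run and DUR3, and DAL82 at -0.47 to 0.19 against the other members. All of these values share the arrays and their scaling and are a description.

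DAL80, the GATA repressor of the pathway, changed more than any of the 9 genes. In the reference strain it went from 3.22, 3.88 and 3.53 in C-lim to 11.55, 11.59 and 11.53 in N-lim, and like DAL2, DAL4 and DAL7 it was higher in snf1Δ C-lim (0.89 ± 0.12). In N-lim it was lower in snf1Δ (-0.57 ± 0.12) and in snf1Δtor1Δ (-0.94 ± 0.12). The activator gene GAT1 rose in N-lim in all 4 strains, by 1.36 to 1.83, and was lower in snf1Δ N-lim (-0.40 ± 0.10) and snf1Δtor1Δ N-lim (-0.51 ± 0.10). It was lower in snf1Δtor1Δ C-lim as well, with a mean of 9.15 against 9.45 in the reference strain. GLN3 rose in N-lim in the reference strain (0.29 ± 0.06) and did not pass in the deletion strains, at 0.00 to 0.08. Its C-lim mean was 5.72 in the reference strain and higher in snf1Δ (6.02), tor1Δ (5.94) and snf1Δtor1Δ (6.28). Its N-lim mean was not below that of the reference strain in any deletion strain. The interaction of TOR1 deletion with medium did not pass for GLN3. GZF3, the other repressor gene, rose in N-lim in the reference strain (0.71 ± 0.07), and URE2 did not pass there (-0.10). In snf1Δtor1Δ C-lim all 4 of GLN3, GAT1, GZF3 and URE2 passed, 3 higher and GAT1 lower. DAL80, GAT1, GLN3, GZF3 and URE2 did not pass for TOR1 deletion in either medium.

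The 27 other targets of nitrogen catabolite repression on the list, among them permeases and degradation enzymes for amino acids and peptides, did not all rise. In the reference strain 19 rose and 6 fell in N-lim, with a median change of 1.56. The largest were the peptide transporter genes OPT2 (at least 747-fold), PTR2 (a log2 change of 6.65) and OPT1 (at least 49.2-fold). In snf1Δ, tor1Δ and snf1Δtor1Δ 20, 20 and 21 rose and 3, 5 and 3 fell. In snf1Δ 15 rose and 9 fell in C-lim, and 4 rose and 13 fell in N-lim. In tor1Δ 0 rose and 2 fell in C-lim, and 1 rose and 4 fell in N-lim. CAR1, for arginase, which makes urea from arginine, is singled out after its values were seen. It fell in N-lim in the reference strain (-0.84 ± 0.10) and was higher in snf1Δ in both media, by 1.02 and 1.79 under glucose and ammonium limitation. DUR3, for the uptake of urea from outside, changed by -0.02 and -1.22 in the same comparisons. CAR1 was also the 1 gene of the 27 to pass for the interaction of TOR1 deletion with medium, at 0.85 ± 0.13 (adjusted p = 0.00323), as DAL3 and DAL4 did among the 9.

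DAL7 has a paralogue, MLS1, the malate synthase of the glyoxylate cycle, and the pair moved apart. MLS1 rose by 0.92 ± 0.15 in N-lim in the reference strain, from 9.52, 9.61 and 9.52 to 10.47, 10.59 and 10.35, against 4.03 for DAL7. In snf1Δ it was lower in both media, with changes of -1.62 ± 0.15 (C-lim) and -1.79 ± 0.15 (N-lim), where DAL7 changed by 0.63 and -0.09. In snf1Δtor1Δ MLS1 fell from C-lim to N-lim (-1.12 ± 0.15), while DAL7 rose by 3.74. Since MLS1 and DAL7 are alike in sequence, some of the signal of a probe set could come from the other gene, which was not tested. Of the 5 genes of glyoxylate handling on the list, MLS1 included, 1 rose and 4 fell in N-lim in the reference strain.

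Relatives of the transporters moved in both directions. Of the 9 relatives of DAL4, permeases for uracil, cytosine, uridine, thiamine and the like, 6 rose and 2 fell in N-lim in the reference strain. Of the 6 measured relatives of DAL5, 1 rose and 3 fell, among them the biotin transporter gene VHT1 (-0.97). In tor1Δ N-lim, where DAL4 was higher, 0 of its 9 relatives rose and 1 fell, FCY21 (-0.999).

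**Figure D5:**
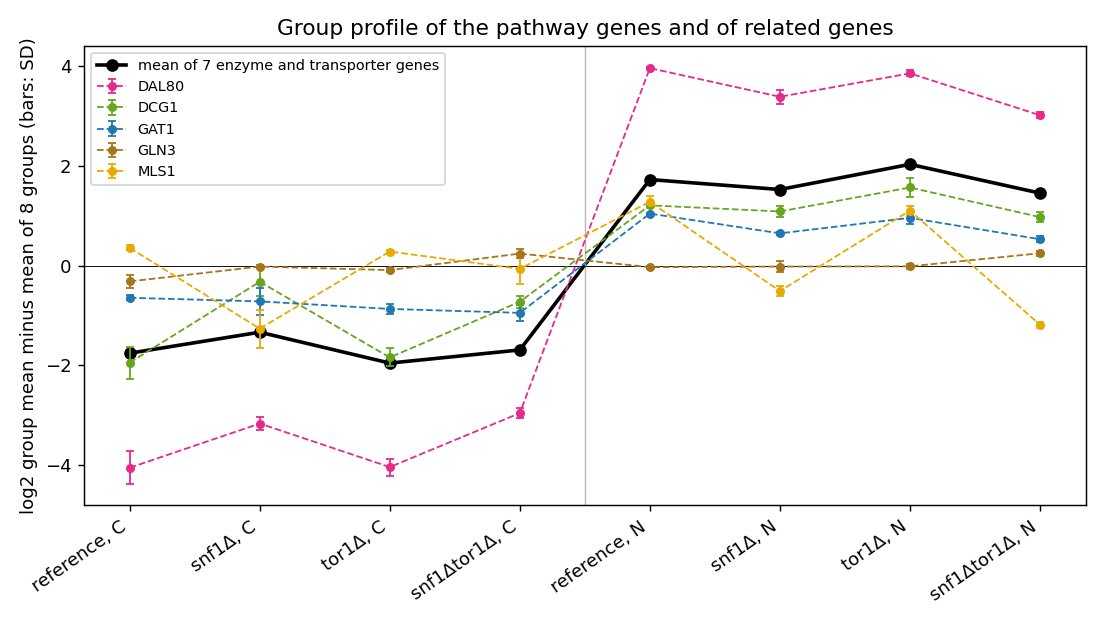
Log2 intensity minus each gene's mean over the 8 groups (vertical axis) in each group (horizontal axis) for the 7 transport and breakdown genes and for DAL80, DCG1, GAT1, GLN3 and MLS1; bars are the SD of 3 arrays. DAL80 spans more than any other line, and GLN3 is nearly flat. MLS1 is below the reference strain in snf1Δ in both media and in snf1Δtor1Δ N-lim. Of these groups the pathway genes stay high in those of N-lim only.

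Genes most like the pathway were sought among the 1449 genes whose group means spanned at least 1 log2 unit, by the Pearson correlation over the 8 group means with the mean of the 7 transport and breakdown genes. The highest were DAL80 (0.995), MEP2, for an ammonium permease (0.995), MIG2, for a repressor of glucose-repressed genes (0.994), YLR460C (0.994) and GAP1, the general amino acid permease gene (0.994). A likeness of 0.95 or more was common, reached by 134 of the 1449 genes, and rests mainly on the gap between the media. DAL81 was most like KIN4 (0.993) and ASE1 (0.992), and DAL82 most like MSI1 (0.992), SIA1 (0.989) and RTC1 (0.988).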

How the data were processed

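Expression was measured on 24 Affymetrix yeast arrays, 3 per group, assigned by their titles. The values are log2 intensities that the authors deposited after RMA (background correction, quantile normalization and probe summary) with the affy package, per the submitters' processing notes; versions were not given in the sources used here. Of the 5716 probe sets 5498 had 1 gene in the platform table, 0 had several and 218 were not listed there. The 47 genes with several probe sets kept the brightest by mean over all arrays, which left 5449 genes, with 12 symbols updated through RefSeq R64.

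One model with 8 group means was fitted over all 24 arrays with limma 3.58.1 in R 4.3.3 (lmFit and eBayes, 16 residual degrees of freedom), with 15 comparisons. P-values were adjusted by the Benjamini-Hochberg method over all genes within a comparison, and the threshold was 0.05. The model code was tested on simulated data. The labels call the 3 cultures of a group biological replicates. Array number limits the precision. Titles repeat replicate numbers between groups; the labels do not say what a number marks. Of the 4 comparisons that share 3 numbers, every same-numbered pair deviated together (correlation over 0.1) in 3: reference C-lim with N-lim (0.23 to 0.37), reference with snf1Δ in N-lim (0.17 to 0.28) and snf1Δtor1Δ C-lim with N-lim (0.12 to 0.20). In tor1Δ against the reference strain in N-lim 2 of 3 did, and snf1Δ C-lim correlated negatively with its numbers elsewhere. Instead, snf1Δ C-lim arrays 10, 11 and 12 correlated positively with arrays 9, 10 and 11, in that order. The values were 0.24 to 0.42 for the reference strain in C-lim and 0.37 to 0.54 in N-lim. For snf1Δ in N-lim they were 0.14 to 0.43. This offset was seen in the values, and its cause was not tested.

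The 9 genes and the comparison lists were chosen with earlier results of these data known. Named genes were the members, the deleted genes, the pathway and repression factors, MLS1 and the genomic neighbours. At most 3 genes with the largest called change stood for each other list and comparison, and 8 or 3 genes for likeness. CAR1 was an exception, named after its values were seen. Alternatives were median centring, repeated quantile normalization, no dim genes (mean under log2 6.66), all probe sets, a trended robust fit, only the compared groups, the replicate number as a fixed or random block, and each array left out.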

Additional observations from a re-analysis of the deposited data

Results flagged for a closer look

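For 16 results the effect of a deletion differed between the media by the interaction test (the effect in N-lim minus the effect in C-lim, adjusted p under 0.05). For SNF1 deletion these were the transporter genes DUR3 (-1.20), DAL4 (-0.81) and DAL5 (-0.62), the enzyme genes DAL1 (-0.76), DAL7 (-0.72) and DAL2 (-0.70), and the activator genes DAL81 (-0.72) and DAL82 (-0.62). For TOR1 deletion they were DAL4 (1.58) and DAL3 (0.88). For the double deletion they were DAL3 (1.32) above 0 and DAL5 (-1.36), DUR3 (-1.09), DAL82 (-0.58), DAL1 (-0.39) and DAL81 (-0.26) below 0. The DAL3 term was positive for the double deletion (1.32) and for TOR1 deletion (0.88), and 0.47 without a call for SNF1 deletion. Dixon's criterion for an outlying value was not applied, since it takes groups of at least 4.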

How the results depend on the processing

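Of the 77 called results of single genes, 64 kept their call under every alternative run and 13 lost it in at least 1. No called result changed direction. Among the 13, the DAL4 interaction with TOR1 deletion lost it only with the replicate block, a fit with 1 tor1Δ C-lim array. The 9 rises from C-lim to N-lim passed in all 4 strains without each array in turn. Without dim genes DAL1 and DAL4 were not in the fit. A change of sign occurred in 18 results that passed under neither setting, none larger than 0.12. No scaling moved the median of all genes by over 0.1. For TOR1 deletion the count of genes past the threshold in C-lim was 0, and 1 with median-centred arrays and 1 with repeated quantile normalization. In N-lim it was 3, and 1 with the compared groups only. For the interaction of TOR1 deletion with medium it was 2, then 1 without dim genes and 1 with the compared groups only, and 1 to 2 with arrays left out. For the genetic interaction in C-lim it was 0, then 1 without dim genes, 1 with a trended robust fit, and 0 to 2 with arrays left out. The cause was not tested, except that dropping dim genes removes DAL4 from the fit. With arrays left out the other counts ran from 5 to 7 (snf1Δ, C-lim), 4 to 6 (snf1Δ, N-lim), 2 to 3 (tor1Δ, N-lim), 4 to 7 and 4 to 5 (snf1Δtor1Δ, C-lim and N-lim), 8 to 9 (SNF1 by medium) and 4 to 5 (double deletion by medium). Adjusted p over its alternatives ran from 0.0154 to 0.154 for DAL82 in snf1Δ C-lim and from 0.0112 to 0.124 for DAL2 in tor1Δ N-lim. For DAL7 in snf1Δ C-lim it ran from 0.000249 to 0.0584, the highest with the compared groups only. For the DAL3 interaction with TOR1 deletion it ran from 0.0156 to 0.112, the replicate block left aside. Same-numbered arrays deviated together (correlation over 0.1) in 22 of 33 pairs, with a median of 0.20 and a highest value of 0.44. The 219 pairs with different numbers ran from -0.48 to 0.54, with a median of -0.04. The random block had a consensus correlation of 0.05. With the replicate block all 9 genes passed for N-lim against C-lim in each strain, 5 and 6 passed for snf1Δ in C-lim and N-lim, 0 and 2 for tor1Δ, 8 for SNF1 by medium, 0 for TOR1 by medium, where DAL4 was at 1.65 (adjusted p = 0.145) and DAL3 at 0.94, and 5 for the double deletion by medium. The block changed no call in the 3 comparisons whose numbers pair the arrays. It gives each number 1 term shared by all groups, and snf1Δ C-lim arrays 10 and 11 correlated negatively with their same-numbered arrays. These arrays enter the terms of numbers 10 and 11 in every comparison of groups that hold them. The counts for those comparisons, also without snf1Δ C-lim, therefore do not check the pairing. The numbers of snf1Δtor1Δ do not occur in snf1Δ C-lim. The block leaves out 3 arrays whose numbers occur once, snf1Δ C-lim replicate 12 and tor1Δ C-lim replicates 7 and 8. Its results with tor1Δ C-lim rest on 1 array of that group, so their p is not read. The block could not be fitted for snf1Δtor1Δ against the reference strain or for the genetic interactions. Genes read near log2 3, DAL1 in C-lim among them, allow only bounds on their folds.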
